A study of Mus musculus with 3 samples.

Results

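The 4 HOX clusters were followed across 3 culture media in mouse kidney explants, gene by gene and by paralog group. The members are the genes named Hoxa, Hoxb, Hoxc or Hoxd with a number that the array annotation names alone on a probe set. Of 38 listed HOX genes 37 had such a probe set, out of 19938 genes in all, and each of the 37 had 1 probe set. These were 10 Hoxa, 9 Hoxb, 9 Hoxc and 9 Hoxd genes. The listed gene without one is Hoxb8, whose probe set also carries the symbol of Hoxb7. That shared probe set stood at 9.44 in serum and at 9.18 in both other media (log2 intensity), and it is counted for neither gene. Kidneys of C57BL/6 embryos at embryonic day 11.5 were grown on Transwell filters for 48 h in DMEM with 10% FBS (the serum array), in plain DMEM (the serum-free array), or in plain DMEM that held retinoic acid (the retinoic acid array). The dose of retinoic acid, the number of embryos per array and their sex were not stated in the labels. Each medium gave 1 Affymetrix Mouse Gene 1.0 ST array, 3 in all, so no value has an error and no difference has a test.

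HOX genes encode homeodomain transcription factors that give cells along the body axis their position. Each cluster carries its genes in order of paralog number, and members with the same number in different clusters descend from 1 ancestral gene. Genes at the low-number (3-prime) end pattern the hindbrain and anterior trunk, and those at the high-number (5-prime) end the lumbar region, limbs and genital tract. Retinoic acid is known to activate genes of the low-number end in many embryonic tissues, through receptors that bind paired AGGTCA-like half-sites in enhancers and promoters. In the embryonic kidney the group 11 genes are known to be needed for induction, where their proteins act with Eya1 and Pax2 on Six2 and Gdnf, and Hoxb7 is known for its expression in the ureteric bud.

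Among genes that reached the floor described below on at least 1 array, paralog group 4 held the 2 largest HOX differences. It also held a gene that was lower with retinoic acid, so the bases before the start of its members are shown. The sequences are from RefSeq (GRCm38.p6), 250 bases upstream of each annotated start, written on the strand of the gene, with every AGGTCA half-site, its variant AGTTCA, its variant GGGTCA and its variant GGTTCA, on either strand, in capitals. Hoxc4 (chr15:103034145-103034394, plus strand), Hoxb4 (chr11:96318017-96318266, plus strand) and Hoxd4 (chr2:74721728-74721977, plus strand) had an entry that could be used.
Hoxc4: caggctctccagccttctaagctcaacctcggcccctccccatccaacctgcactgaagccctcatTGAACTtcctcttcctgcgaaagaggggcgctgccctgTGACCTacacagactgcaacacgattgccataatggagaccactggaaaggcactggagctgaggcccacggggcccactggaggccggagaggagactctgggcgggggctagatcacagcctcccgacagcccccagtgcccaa
Hoxb4: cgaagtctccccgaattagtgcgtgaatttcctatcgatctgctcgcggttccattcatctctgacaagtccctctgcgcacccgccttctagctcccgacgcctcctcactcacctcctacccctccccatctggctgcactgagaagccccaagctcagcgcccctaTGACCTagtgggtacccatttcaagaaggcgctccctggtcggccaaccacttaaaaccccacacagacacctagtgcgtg
Hoxd4: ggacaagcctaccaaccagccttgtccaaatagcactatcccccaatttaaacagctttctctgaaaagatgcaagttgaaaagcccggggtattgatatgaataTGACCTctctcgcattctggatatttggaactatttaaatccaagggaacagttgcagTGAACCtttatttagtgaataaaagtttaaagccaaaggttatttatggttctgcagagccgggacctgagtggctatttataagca
All 3 windows held AGGTCA on the opposite strand. It was present, on either strand, in 6 of 23 windows of 21 HOX genes (26.1%) and in 4607 of 32851 windows of all genes (14%), a difference that was not tested. The 6 were those of Hoxb4, Hoxc4, Hoxd3, Hoxd4, Hoxd8 and Hoxd10, so no Hoxa window held it. Hoxa and Hoxd had 10 windows each, Hoxb had 2 and Hoxc had 1. At least 1 half-site of the 4 kinds was in 39.1% of the HOX windows and in 38.6% of all windows. Hoxc4 and Hoxd4 each held 2 half-sites of the 4 kinds and Hoxb4 held 1. Direct repeats of such half-sites with spacings of 1, 2 or 5 bases (DR1, DR2 and DR5, on both strands) were in 0 of the 23 HOX windows, and in 0.164%, 0.174% and 0.0883% of all windows. Hoxc4 was higher with retinoic acid and Hoxd4 lower, and a link between half-sites and these differences was not tested. The homeodomain core site TAATTA was in 2 of the 23 HOX windows, both of Hoxd11, and in 4.84% of all windows. The HOX windows held a median of 13 CpG dinucleotides, against 6 over all genes.

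Levels are the log2 of the deposited intensity, and levels of different genes are not set against each other. A floor was set at 7.12, the median over all genes and arrays. It marks the middle of all values and does not measure background. Of the 37 HOX genes 30 reached it on all 3 arrays, and Hoxc4 on 2. Hoxb1, Hoxb13, Hoxc11, Hoxc12, Hoxc13 and Hoxd1 stayed below it on every array. HOX RNA of all 4 clusters and of every paralog group from 2 to 13 was thus above the floor in cultured kidney, including groups 2 to 4.

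**Figure D1:**
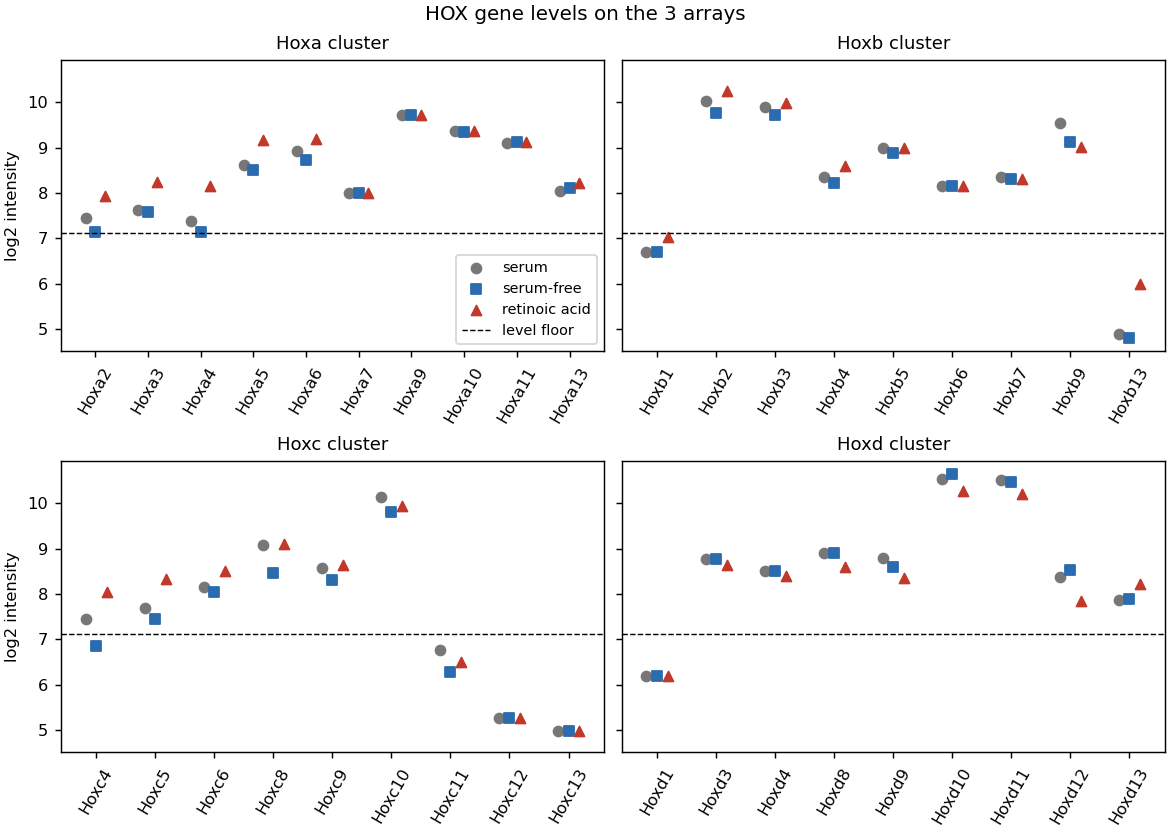
Level of each HOX gene (vertical axis, log2 intensity) on the serum, serum-free and retinoic acid arrays, 1 point per array, in 4 panels by cluster with genes in order of paralog number; the dashed line is the floor of 7.12. The retinoic acid point is the highest for Hoxa2 to Hoxa6 and Hoxc4 to Hoxc6 and the lowest for Hoxd3 to Hoxd12.

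The first comparison set the retinoic acid array against the serum-free array. Hoxa2 to Hoxa6 and Hoxc4 to Hoxc9 were higher with retinoic acid, by 0.32 to 1.19 on the log2 scale, Hoxb1 to Hoxb5 by 0.09 to 0.49, and Hoxd3 to Hoxd12 were lower by 0.10 to 0.68. These ranges of genes were drawn after the values were seen. Over the 37 genes 22 differences were above 0, 8 below 0 and 7 exactly 0. Of all 19938 genes 20.4% were above 0, 28.0% below 0 and 51.6% exactly 0, and of those at or above the floor on either array 29.5%, 35.1% and 35.4%. Ties this common cannot be read as equal expression. The median HOX difference was 0.12, against 0.00 over all genes.

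With the higher value at or above the floor, 2 HOX genes were at least 2-fold higher with retinoic acid and 0 were at least 2-fold lower. Among all genes 0.532% were higher and 0.311% lower by that rule, or 1.05% and 0.613% of the 10111 genes that reached the floor. By the 1.5-fold rule 7 HOX genes were higher and 1 was lower, where 1.22% and 0.983% of all genes were, or 2.41% and 1.94% of those that reached the floor. The 7 were Hoxa2, Hoxa3, Hoxa4, Hoxa5, Hoxc4, Hoxc5 and Hoxc8, and the lower one was Hoxd12. All 4 of the clusters had members at or above the floor, but those past 1.5-fold lay in Hoxa, Hoxc and Hoxd.

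In the Hoxa cluster the difference ran from Hoxa2 to Hoxa6 and stopped there. Hoxa4, which patterns the cervical region, stood at 7.39, 7.13 and 8.15 on the serum, serum-free and retinoic acid arrays, the order used from here on, and was 2.02-fold above its serum-free value. Hoxa2, needed for the hindbrain and the second pharyngeal arch, stood at 7.44, 7.13 and 7.94 in the same order, a difference of 0.80 from serum-free to retinoic acid. The serum-free values of both lay at the floor. Hoxa3, needed for the thymus and parathyroid, stood at 7.62, 7.58 and 8.25, and was 1.59-fold higher with retinoic acid than without. Hoxa5, needed for lung and cervical skeleton, stood at 8.62, 8.51 and 9.18, and was 1.60-fold higher. Hoxa6 was at 8.92, 8.72 and 9.20, a difference of 0.48. For these 5 genes the retinoic acid array was the highest and the serum-free array the lowest. From Hoxa7 to Hoxa13 the differences were 0.00 to 0.12. Hoxa7 stood at 7.99 on each array and Hoxa9 at 9.71 on each. Hoxa10, known for its part in the uterus and in renal stroma, stood at 9.37, 9.35 and 9.37, and Hoxa11 at 9.11, 9.13 and 9.13. Hoxa13, of limb ends and the genital tract, stood at 8.05, 8.10 and 8.22 and had the largest of these 5 differences, 0.12.

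In the Hoxc cluster the difference was largest in Hoxc4 and was present up to Hoxc9. Hoxc4 stood at 7.44, 6.86 and 8.05, with the serum-free value below the floor, and was 2.28-fold higher with retinoic acid than without. Hoxc5 stood at 7.70, 7.46 and 8.33, and was 1.83-fold higher with retinoic acid than without. Hoxc6, a gene of the thoracic region, was at 8.15, 8.05 and 8.52, a difference of 0.47. All 3 were highest with retinoic acid and lowest without serum. Hoxc8, which patterns the thoracic skeleton and brachial motor neurons, stood at 9.09, 8.46 and 9.10, so its retinoic acid and serum values were alike and its serum-free value was 1.56-fold lower than the retinoic acid value. Hoxc9, which sets thoracic motor neuron identity, was at 8.58, 8.32 and 8.64. Hoxc10, a lumbar gene, was highest in serum, at 10.15, 9.81 and 9.94, a difference of 0.13 between the last 2. Hoxc11, below the floor at 6.77, 6.28 and 6.50, differed by 0.22. Hoxc12 and Hoxc13, genes of the hair follicle, were at 5.27 and 4.98 on every array.

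In the Hoxb cluster the differences were smaller and 0 of 9 genes reached 1.5-fold above the floor. Hoxb2, of the hindbrain, stood at 10.02, 9.77 and 10.26, a difference of 0.49. Hoxb4, known for its part in blood stem cells, was at 8.35, 8.21 and 8.59, a difference of 0.38. Hoxb3, at 9.89, 9.71 and 9.98, differed by 0.27. Hoxb1, a marker of the fourth rhombomere, differed by 0.33 with every value below the floor (6.71, 6.69 and 7.02). Each of these 4 was highest with retinoic acid. Hoxb5, at 8.99, 8.89 and 8.99, was back at its serum value with retinoic acid. Hoxb6 was at 8.16 on each array, and Hoxb7 at 8.36 in serum and 8.31 on both other arrays. Hoxb9 was the only gene outside the Hoxd cluster with a lower value, at -0.11. Hoxb13, a gene of prostate and tail, was at 4.89, 4.80 and 6.00, which is an intensity of 63.9 with retinoic acid, so its difference of 1.20 lay wholly below the floor.

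In the Hoxd cluster the direction was the other one. Hoxd12, a limb gene, stood at 8.37, 8.53 and 7.85, a difference of -0.68 from serum-free to retinoic acid or 1.61-fold lower. Hoxd10 stood at 10.53, 10.64 and 10.28, and Hoxd11, the group 11 gene of this cluster, at 10.52, 10.48 and 10.20. Their differences from serum-free to retinoic acid were -0.36 and -0.29. In all 3 genes the retinoic acid array was the lowest. Hoxd8 stood at 8.90, 8.90 and 8.60, and Hoxd9 at 8.79, 8.59 and 8.35, differences of -0.30 and -0.24. Hoxd3, which shapes the first cervical vertebra, stood at 8.78, 8.78 and 8.64, and Hoxd4 at 8.51, 8.51 and 8.41, differences of -0.14 and -0.10. All 7 genes from Hoxd3 to Hoxd12 were thus below their serum-free value, with a median of -0.29, and 1 of them reached 1.5-fold. That range was drawn after the values were seen. Of all genes that reached the floor 35.1% were below 0. The central 95% of those genes ran from -0.52 to 0.56, and of the 7 only Hoxd12 lay outside it. Over all 9 Hoxd genes the median was -0.24, with 7 below 0, 1 above and 1 exactly 0. Hoxd13, at the end of the cluster and known for digit formation, went the other way, at 7.87, 7.89 and 8.23. Hoxd1 was at 6.20 on every array, below the floor.

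**Figure D2:**
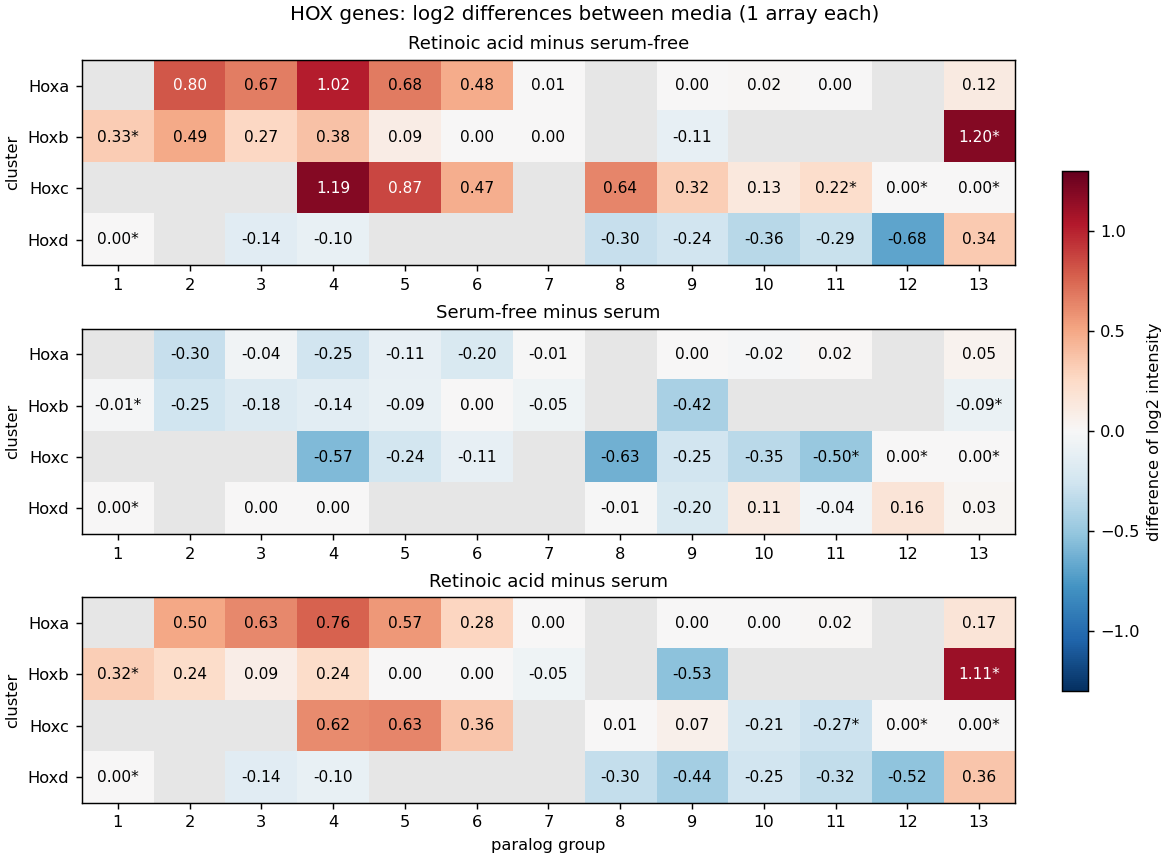
Difference of log2 intensity for each HOX gene in 3 comparisons (panels), with clusters as rows and paralog groups 1 to 13 as columns; red is higher and blue lower in the medium named first, grey cells have no value here, and * marks genes below the floor on every array. With retinoic acid against serum-free cells of 0.47 or more are Hoxa2 to Hoxa6, Hoxb2, Hoxc4 to Hoxc6, Hoxc8 and Hoxb13, which is below the floor, and the Hoxd row is blue from group 3 to group 12.

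By paralog group, retinoic acid against serum-free had its largest medians in groups 4, 5 and 2, at 0.70 over 4 genes, 0.68 over 3 and 0.65 over 2. Group 6 had a median of 0.47 and group 3 of 0.27, over 3 genes each. Groups 7, 9, 10 and 11 had medians from -0.06 to 0.02, and group 12 one of -0.34 over 2 genes. Group 13 had a median of 0.23 over 4 genes, Hoxb13 and Hoxc13 below the floor among them, group 8 one of 0.17 over 2 genes and group 1 one of 0.17 over 2 genes below the floor. Taken as 3 sets, groups 1 to 4 had a median of 0.38 over 11 genes, groups 5 to 8 one of 0.28 over 10, and groups 9 to 13 one of 0.00 over 16. The sets hold unlike members. In groups 1 to 4 all 8 genes outside Hoxd, Hoxb1 below the floor included, were higher, with a median of 0.58, while Hoxd1, Hoxd3 and Hoxd4 were at 0.00, -0.14 and -0.10. Hoxd was set apart here after its values were seen, so the higher median follows in part from that choice. Of all genes 20.4% were above 0, and of those that reached the floor 29.5%.

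Within a paralog group the Hoxd gene, singled out after its values were seen, stood below the others nearly throughout. Of 9 groups with a Hoxd gene and at least 1 other measured member, the Hoxd difference was below all of them in 8. The exception was group 13, where the others ran from 0.00 to 1.20. In group 4 the Hoxd4 difference of -0.10 stood against 0.38 to 1.19 in Hoxa4, Hoxb4 and Hoxc4. In group 8 Hoxd8 was at -0.30 and Hoxc8 at 0.64. In groups 1 and 12 the comparison rests on Hoxb1 and Hoxc12, which were below the floor on every array. The cluster medians were 0.30 for Hoxa, 0.27 for Hoxb, 0.32 for Hoxc and -0.24 for Hoxd, and with 1 array per medium the difference between clusters could not be tested.

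Along the Hoxa and Hoxc clusters the difference declined with paralog number. Across genes, Spearman's rho between the paralog number and the difference from serum-free to retinoic acid was -0.77 over 10 Hoxa genes and -0.96 over 9 Hoxc genes. It was -0.31 over 9 Hoxb genes and -0.30 over 9 Hoxd genes. Without Hoxb13 and Hoxd13, left out after their values were seen, these became -0.87 and -0.86 over 8 genes each. Genes of a cluster share the same pair of arrays and are not independent replicates, so the coefficients are descriptions. The coefficients take in genes below the floor on every array, Hoxc11, Hoxc12 and Hoxc13 among them. They also take in ties, with Hoxa9, Hoxa11, Hoxc12 and Hoxc13 at exactly 0. From Hoxd3 to Hoxd12 the decline was from values just under 0 to lower ones, not from higher values towards 0. Hoxd13, at 0.34, did not share it.

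**Figure D3:**
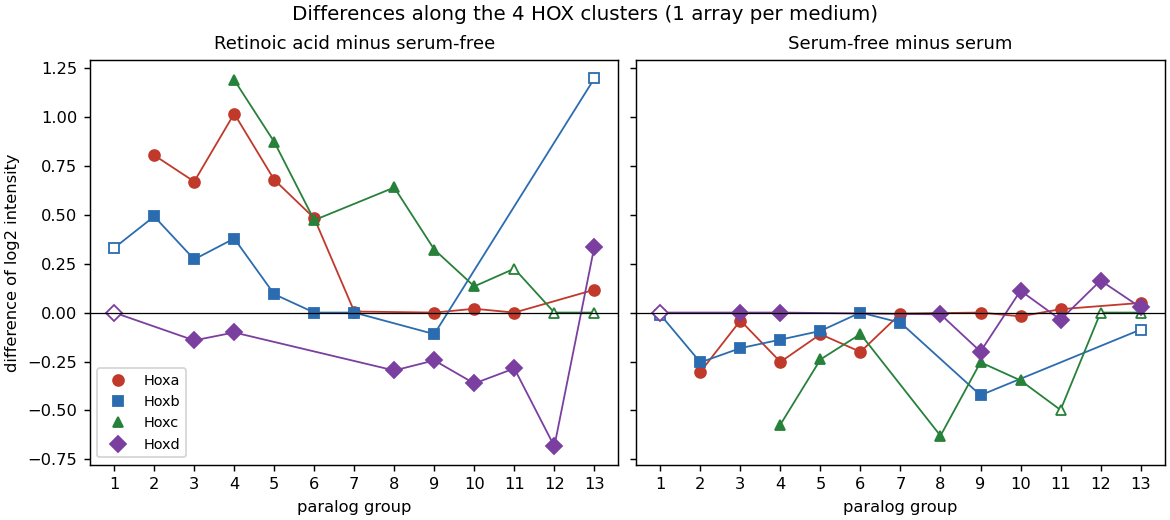
Difference of log2 intensity (vertical axis) against paralog group (horizontal axis) for the Hoxa, Hoxb, Hoxc and Hoxd genes, retinoic acid minus serum-free on the left and serum-free minus serum on the right; filled symbols are genes at or above the floor on at least 1 array, open ones below it on all. On the left Hoxa is at 0.01 at group 7, Hoxc reaches 0.13 at group 10, and Hoxd lies below 0 from group 3 to group 12.

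The second comparison set the serum-free array against the serum array. HOX differences were smaller here and mostly below 0, led by Hoxc8, which was 1.55-fold lower without serum (9.09 against 8.46), and Hoxc4, which was 1.49-fold lower. Of the 37 genes 25 were below 0, 5 above 0 and 7 exactly 0, with a median of -0.05. Among all genes 31.9% were below 0, 22.7% above and 45.4% exactly 0. Among the 10156 genes that reached the floor these were 51.0%, 19.5% and 29.5%, so lower values were common among genes that reached it. At least 1.5-fold, 1 HOX gene was lower and 0 were higher, where 1.05% and 1.02% of all genes were, or 2.07% and 2.01% of those that reached the floor. At least 2-fold the HOX counts were 0 and 0, where 0.356% of all genes were lower and 0.446% higher, or 0.699% and 0.876% of those that reached the floor.

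The Hoxc cluster had the lowest median without serum, -0.25 over 9 genes, and 7 of its genes were below 0. After Hoxc8 and Hoxc4, Hoxc11 differed by -0.50 with all values below the floor, Hoxc10 by -0.35, Hoxc9 by -0.25 and Hoxc5 by -0.24. In the Hoxa cluster Hoxa2 to Hoxa6 were lower by 0.04 to 0.30, and Hoxa7 to Hoxa13 lay between -0.02 and 0.05. In Hoxb the largest difference was that of Hoxb9, a gene of the thoracic region, at -0.42 (9.54 in serum and 9.12 without). The Hoxd genes had a median of 0.00, with Hoxd12 at 0.16, Hoxd10 at 0.11 and Hoxd9 at -0.20.

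The comparisons share arrays, and the serum-free array enters both of those above with opposite sign, so a gene with a low value there is higher in the first and lower in the second by construction. A total of 15 HOX genes were lowest in serum-free medium and highest with retinoic acid, namely Hoxa2 to Hoxa6, Hoxb1 to Hoxb4, Hoxb13, Hoxc4 to Hoxc6, Hoxc8 and Hoxc9. Another 8 were lowest with retinoic acid, the Hoxd genes from Hoxd3 to Hoxd12 and Hoxb9. Values were equal on all 3 arrays for Hoxa9, Hoxb6, Hoxc12, Hoxc13 and Hoxd1. Of the 15, Hoxb1 and Hoxb13 were below the floor on every array, and Hoxc8 was only 0.01 higher with retinoic acid than in serum. The share of all genes with each pattern was not counted, so these counts have no background beside them.

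The third comparison set retinoic acid without serum against serum. Hoxa4 was 1.70-fold above its serum value, Hoxc5 1.55-fold, Hoxa3 1.55-fold and Hoxc4 1.53-fold. These were the 4 HOX genes at least 1.5-fold higher, with 0 lower, where 1.25% of all genes were higher and 1.45% lower, or 2.46% and 2.84% of those that reached the floor. At least 2-fold the counts were 0 and 0, against 0.532% and 0.416% of all genes, or 1.04% and 0.816% of those that reached the floor. Of the 37 genes 18 were above 0, 11 below and 8 exactly 0, against 21.0%, 32.4% and 46.5% of all genes and 21.2%, 51.3% and 27.5% of those that reached the floor. Hoxa5 was at 0.57 and Hoxa2 at 0.50 on the log2 scale. Hoxc8 differed by 0.01 and Hoxc9 by 0.07. Hoxd12 was at -0.52, Hoxd9 at -0.44, Hoxd11 at -0.32 and Hoxd10 at -0.25, and Hoxb9, at 9.54, 9.12 and 9.01 on the 3 arrays, at -0.53. The cluster medians were 0.22 for Hoxa, 0.09 for Hoxb, 0.01 for Hoxc and -0.25 for Hoxd. The median over all 37 was 0.00, the same as over all genes.

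The genes that flank the clusters were described in the same way. Of the 24 nearest measured protein-coding genes, 3 on each side of each cluster in the order of the RefSeq table, 0 were at least 1.5-fold higher or lower with retinoic acid against serum-free at or above the floor, and their median was 0.00. Of all genes that reached the floor 2.41% were higher and 1.94% lower, so a count of 0 among 24 lies near the background. Next to the low-number end, Skap2 beside Hoxa stood at 7.83, 7.90 and 8.31, a difference of 0.41 with retinoic acid. Smug1, a DNA repair gene beside Hoxc, differed by 0.65 with every value below the floor (6.37, 6.37 and 7.02). Skap1 beside Hoxb and Mtx2 beside Hoxd were at 0.00. At the high-number end Ttll6 beside Hoxb was at 0.00 and below the floor, and Evx1 and Evx2, homeobox genes beside Hoxa and Hoxd, were at 0.00 and below the floor, with Calcoco1 beside Hoxc at 0.03. Of 11 measured genes that are Evx genes or non-coding genes within the clusters, such as Hottip, Hoxaas2 and the miR-10 and miR-196 genes, 0 reached the floor on any array. The largest differences with retinoic acid among them were 0.29 for Mir10a, which lies beside Hoxb4, and -0.24 for Hottip.

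HOX proteins bind DNA together with TALE homeodomain cofactors. Of 8 measured cofactor genes 3 were higher with retinoic acid against serum-free, 1 lower and 4 equal, and 0 reached 1.5-fold. Meis2 was at 12.06, 11.97 and 12.36, a difference of 0.39, Pbx3 differed by 0.29 and Meis1 by 0.19. Among 17 Polycomb genes, whose complexes keep HOX clusters silent, the median was 0.00 and 0 reached 1.5-fold. The largest of these were Jarid2 at 0.33 and Phc1 at -0.22. Of 10 Trithorax genes, whose proteins keep HOX genes active, 0 reached 1.5-fold with retinoic acid against serum-free, and Kmt2a, which encodes the HOX activator MLL, stood at 8.95, 9.34 and 9.61, 1.58-fold higher with retinoic acid than in serum. Cdx1, Cdx2 and Cdx4, activators of central HOX genes in the trunk, were below the floor with equal values on every array. The list of 8 measured upstream regulators that holds them had a median of -0.01 and 0 members past 1.5-fold. Of all genes 1.22% were at least 1.5-fold higher with retinoic acid against serum-free and 0.983% lower. Of those that reached the floor these were 2.41% and 1.94%, so counts of 0 in these short lists lie near the background.

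Of 20 other homeobox genes related to the HOX class, 18 did not reach the floor on any array. The other 2 were Meox1 and Meox2, mesoderm genes, which differed in opposite directions with retinoic acid against serum-free, by 1.81 (8.19 to 10.00) and by -1.52 (10.13 to 8.61). Of 7 measured kidney genes that act with or downstream of group 11 HOX proteins, 5 were lower with retinoic acid, 1 was equal and 1 higher, with a median of -0.17. At least 1.5-fold, 2 were lower, where 0.983% of all genes were. Six2, which keeps nephron progenitors undifferentiated, stood at 11.03, 11.25 and 10.39, and Osr1, an early regulator of kidney mesoderm, at 10.82, 11.16 and 10.19. Gdnf, the ligand of Ret, was at 9.41, 9.31 and 9.15 and Pax2 at 10.77, 10.56 and 10.56. Hoxa11, Hoxc11 and Hoxd11 differed by 0.00, 0.22 and -0.29 in the same comparison.

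**Figure D4:**
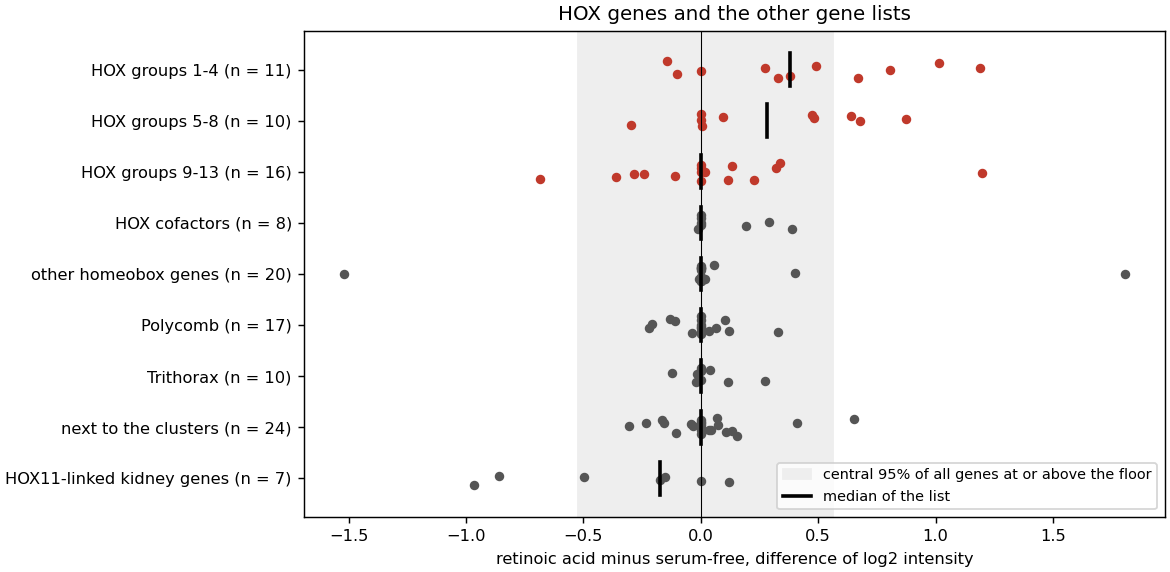
Difference of log2 intensity between retinoic acid and serum-free medium (horizontal axis) for each gene of the 3 HOX sets (red) and of 6 other lists (grey), 1 point per gene, with the median of each list as a bar; the shaded band from -0.52 to 0.56 holds the central 95% of all genes at or above the floor. Points of HOX groups 1 to 4 and 5 to 8 lie beyond the upper edge and Hoxd12 beyond the lower one, and Meox1, Meox2, Six2 and Osr1, as well as Hoxb13 and Smug1 with values below the floor, lie outside the band too.

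The arrays also differed in markers of cell types, and explants mix many of these, so fewer cells of a type and less RNA per cell cannot be told apart. All 5 nephron progenitor markers were above the floor on every array. With retinoic acid against serum-free 4 of these 5 were lower, while Meox1 was higher by 1.81, and the median of the 5 was -0.86. The summed intensity of the 5 was 7407, 9054 and 5728 in the same order of arrays. For 5 ureteric bud markers the sums were 6560, 3349 and 6623, with 4 of 5 higher with retinoic acid against serum-free and a median of 0.33, and for 3 renal stroma markers they were 4187, 3751 and 4536. The ureteric bud sum largely followed Calb1, at 11.67, 9.73 and 11.91, while Cdh1 differed by 0.03 and Gata3 by -0.48 with retinoic acid against serum-free. The 5 early nephron markers summed to 3476, 1680 and 2544, and with retinoic acid against serum-free 3 were higher, 1 lower and 1 equal. Of 10 neural markers 7 had equal values with and without retinoic acid, and Sox2, Pax6, Olig2 and Pax3, which define spinal cord progenitors, were below the floor with equal values on every array. The neural sum of 1510, 1905 and 3604 followed Stmn2, a gene of neurites, at 9.75, 10.15 and 11.49. All 5 paraxial mesoderm and muscle markers were below the floor throughout, and of 5 markers of adrenal cortex and gonad only Sox9, which the ureteric bud also expresses, was above it. All 8 macrophage markers were at least 2-fold higher without serum than with it, where 0.446% of all genes were, or 0.876% of those that reached the floor. The macrophage sums were 2328, 7395 and 5344, and 5 endothelial markers summed to 3595, 5782 and 4599. Xist and the Y-linked genes also differed, with Xist at 10.84, 11.48 and 9.79 and Kdm5d at 7.74, 7.21 and 8.40. The part of cell composition and of embryo sex in the HOX differences was not tested. As a check of the treatment, 5 of 8 retinoic acid response genes were at least 2-fold higher with retinoic acid against serum-free. By that rule 0.532% of all genes were, or 1.05% of those that reached the floor. Among the 5 was Rarb, which encodes a retinoic acid receptor, at 10.41, 8.43 and 11.37. The other 4 were Cyp26b1, whose product clears retinoic acid from cells, with a difference of 3.65 from a serum-free value below the floor, Dhrs3, which encodes a retinaldehyde reductase, at 3.32, Stra6, which encodes a retinol transporter, at 1.56, and Ret, the receptor of Gdnf, which stood at 8.42 without and 9.92 with retinoic acid. Of the rest of the list, Crabp2 and Rara were lower, at -0.49 and -0.08, and Cyp26a1 differed by 1.15 with every value below the floor.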

How the data were processed

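The authors deposited probe set intensities on a linear scale, and per the submitters' processing notes the software was Expression Console 1.1 with RMA, which is a method of background subtraction, quantile normalisation and median polish. RMA settings not given in the sources used here were not assumed. The 250 ng of RNA per array is per the labels' protocols. All values here are log2 of these intensities, with no further scaling. Of 35556 probe sets 21789 had exactly 1 gene symbol, 1621 had several and 12146 had none in the table used. A gene was represented by its probe set with the highest mean over the 3 arrays. All 37 HOX genes matched the RefSeq table (GRCm38.p6) by gene identifier. That table supplied gene order, and the array values carry no genome build.

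With 1 array per medium there was no test. Differences were described by size rules of 2-fold and 1.5-fold with the higher value at or above the floor of 7.12 (an intensity of 139.5). The code that applies these rules was tested on simulated data, which bears on the code and not on the error of a difference. The HOX members, gene lists and rules were chosen with earlier results of these data known. The rule for named genes took every HOX gene, the genes next to each cluster and, of other lists, the members at least 1.5-fold different and up to 4 with the largest differences. Marker lists are given by counts and sums instead. Most marker genes are thus not named. Gdnf, Pax2, Cdx1, Cdx2, Cdx4, Hoxaas2, Sox2, Pax6, Olig2, Pax3, Stmn2, Sox9, Xist and Kdm5d were named beyond this rule, after their values were seen. So were Calb1, Cdh1, Gata3, Crabp2, Rara and Cyp26a1. The number of arrays limits the precision. Other settings are given in the closing section, where a value counted as moved past 0.1 on the log2 scale or 1.5 times for a count. Tools were Python 3.11.15, pandas 2.3.3, numpy 2.4.6, scipy 1.17.1, R 4.3.3 and limma 3.58.1.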

Additional observations from a re-analysis of the deposited data

How the results depend on the processing

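Over 6 alternatives (32 added to the intensities, cyclic loess scaling, a floor at the 25th percentile, no floor, the mean of a gene's probe sets, and probe sets with several symbols allowed), 4 of 36 HOX counts and medians moved under at least 1 alternative and 0 reversed. Some of these outcomes were fixed in advance. The mean of probe sets could not change a HOX value, since each HOX gene had 1 probe set, and the floor settings could not change a median. With 32 added, 1 HOX gene, Hoxc4, was at least 2-fold higher with retinoic acid against serum-free, and 1, Hoxa4, was at least 1.5-fold higher with retinoic acid against serum. With probe sets of several symbols allowed, which brings in Hoxb8, the median of groups 5 to 8 with retinoic acid against serum-free was 0.094. With the lower floor or none, 1 HOX gene, Hoxb13, was at least 2-fold higher with retinoic acid against serum; with 32 added its difference was 0.64. Cyclic loess turned the sign of 3 HOX genes, Hoxa7, Hoxa10 and Hoxd8, in serum-free against serum, all with differences within 0.02 of 0. No paired analysis was possible because each medium has 1 array. The serum-free values of Hoxa2, Hoxa4 and Hoxc4 lay at or under the floor. With 32 added, their differences with retinoic acid against serum-free went from 0.80, 1.02 and 1.19 to 0.68, 0.87 and 1.00. The effect of background on the size of these differences was not tested.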
